A study of Mus musculus with 8 samples.

Results

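The 10 genes described here belong to Toll-like receptor, interleukin-1 and inflammasome signalling: Tlr2, Tlr4, Myd88, Il1r1, Il1b, Nlrp3, Casp1, Pycard, Tnf and Icam1. They were chosen by name, and all 10 were present among the 13708 genes of the deposited count table. RNA was sequenced from sorted LSK cells, which lack lineage markers, carry Sca-1 and c-Kit, and include blood stem cells and multipotent progenitors. The db/m group held 4 libraries of B6.BKS(D)-Leprdb/+ mice, labelled heterozygous for the leptin receptor, and the db/db group held 4 libraries of B6.BKS(D)-Leprdb/J mice, labelled homozygous. Both groups were labelled 6 months after diabetes, and db/db mice lack the long, signalling form of the leptin receptor in every tissue, so that obesity, diabetes and the receptor defect come together in that group. Each of the 8 titles has db/m in it, and groups were therefore taken from the genotype label. Whether libraries stem from different mice is not stated, so the p-values cover only the spread between these samples, which may be technical. Errors after ± are SD over n = 4 libraries unless given as SE.

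Toll-like receptors sense microbial products, and the interleukin-1 receptor senses interleukin-1; both signal through the adaptor Myd88 and kinases of the Irak family to the transcription factor NF-kB. NF-kB raises transcription of cytokines such as Tnf and Il1b, of the adhesion molecule Icam1 and of the sensor Nlrp3. When activated, Nlrp3 gathers the adaptor ASC, encoded by Pycard, and the protease caspase-1 into an inflammasome, which cleaves the interleukin-1 beta precursor. Stem and progenitor cells of blood carry several of these receptors and are known to respond to them with proliferation and myeloid differentiation.

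Of the 10 genes, 0 passed the threshold of 0.05 on the adjusted p (edgeR, quasi-likelihood, all genes), which 0.0365% of the 13708 genes passed, 0.0146% higher and 0.0219% lower in db/db. The lowest p belonged to Pycard, whose mean level was 47.9 CPM, counts scaled to library size, in db/db against 73.6 CPM in db/m, and it was the 1 gene of the 10 with an unadjusted p under 0.05, beside 15.3% of all genes. It was also the 1 gene of the 10 whose db/db libraries all lay on one side of the db/m libraries, beside 9.03% of all genes, 4.5% higher and 4.53% lower. The likelihood ratio test and DESeq2 each called 1 of the 10, Pycard, beside 587 and 767 of the 13708 genes. Limma-voom called 0 of the 10 and 0 of all genes. The same all-gene counts stand beside the list counts of these tests given below. The median log2 fold change of the 10 was -0.07, beside 0.01 over all genes, with 4 positive and 6 negative values. Without db/db replicate 3 the counts of 1 became 3 for both measures, Tlr2, Tlr4 and Pycard, and without db/m replicate 3 the unadjusted count became 2, Pycard and Icam1. The share of all genes was 18.2% and 17.9% in the former fit and 15% in the latter.

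**Figure D1:**
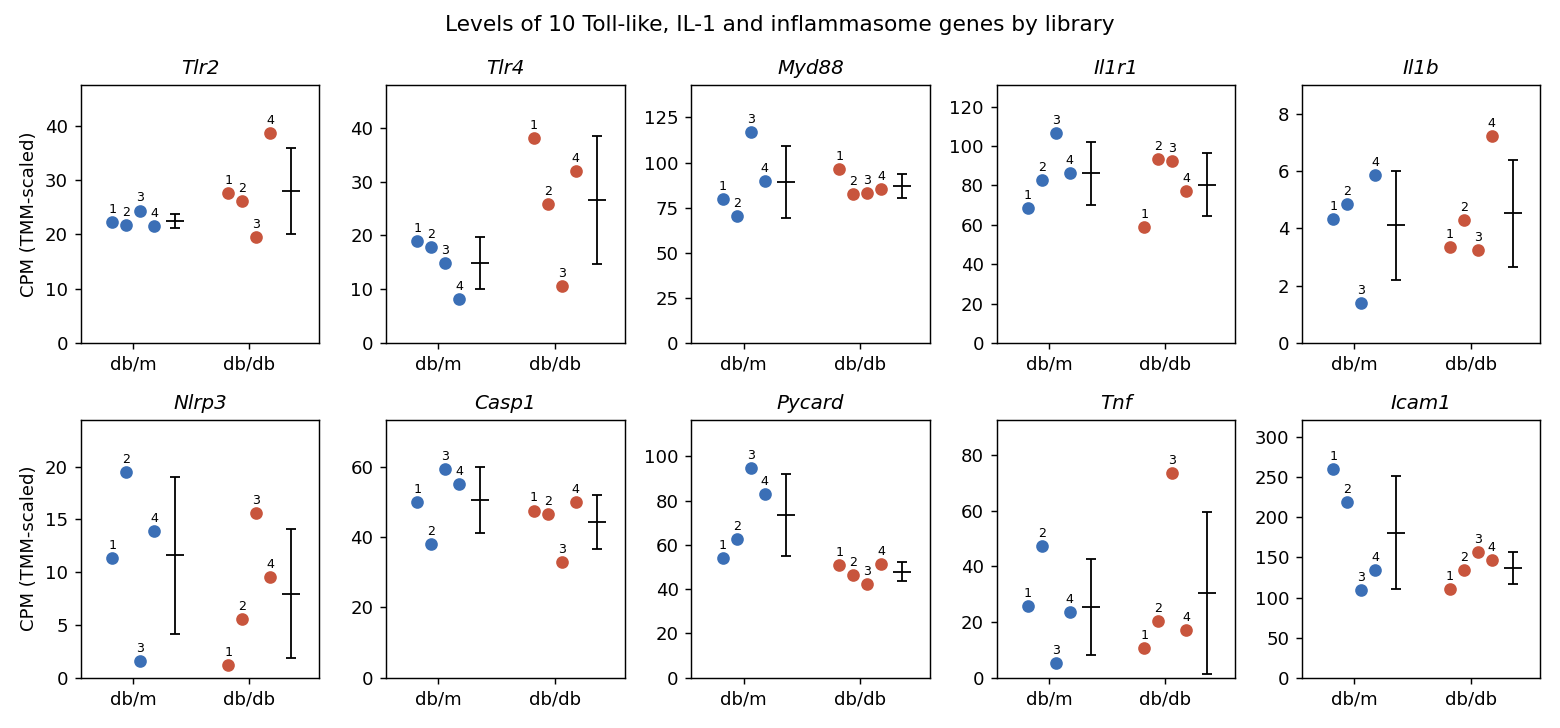
Level of each of the 10 genes in each library, in CPM scaled by TMM on a linear axis that starts at 0; points are libraries with their replicate numbers, and the bars beside them are the mean and SD of 4 libraries. Pycard is the panel in which the 2 groups do not overlap, and Nlrp3 and Tnf are the panels in which libraries of 1 genotype lie furthest apart relative to their mean.

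Each library held 27640853 to 42806327 counts on genes, and RNA integrity numbers were 9.5 to 10. The share of uniquely mapped reads outside genes was 12.2% to 26.5% in db/m and 5.15% to 11.9% in db/db (exact two-sided permutation p = 0.0286, the smallest that 4 against 4 allows, adjusted p = 0.114 over 4 library measures). All 12 LSK genes listed were measured in every library; Kit was at 658 ± 101 CPM in the db/m libraries and 812 ± 216 CPM in the db/db libraries (SD, n = 4 each), whereas Ly6a, which encodes Sca-1, was at 466 ± 115 and 131 ± 36.1 CPM (adjusted p = 0.0445 by edgeR), the 1 called gene of any list used here. Lepr, the mutated gene, was at 0.0973 to 1.27 CPM in db/m and 0.412 to 2.66 CPM in db/db; the db mutation alters splicing, so a count over the whole gene does not check the genotype. Voom quality weights were lowest for db/m replicate 3 (0.509) and db/db replicate 3 (0.442).

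Levels can be ranked between genes only per length, as CPM per kilobase (RPKM). Averaged over the 8 libraries, the order was Icam1 (62.7 RPKM), Myd88 (46.2), Casp1 (31.3), Pycard (28.4), Tnf (16.9), Il1r1 (16.5), Tlr2 (8.84), Tlr4 (5.40), Il1b (3.25) and Nlrp3 (2.43). The ranges over libraries overlapped between every pair of neighbours in that order. Myd88 was above Casp1, and Il1r1 above Tlr2, in all 8 libraries, but Tnf was above Il1r1 in only 3 of 8. The adaptor and the protease of these pathways were therefore at higher levels per length than the sensor Nlrp3 and the cytokine Il1b, whose highest values in any library were 4.84 and 5.44 RPKM, below the lowest Myd88 value of 36.9 and the lowest Casp1 value of 21.8 RPKM.

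The genes differed widely in how far libraries of the same genotype lay apart. The SD of log2 CPM between libraries within groups was 1.58 for Nlrp3, 1.27 for Tnf, 0.75 for Il1b and 0.70 for Tlr4, which lay above 99.4%, 98.5%, 94.6% and 93.7% of the 11162 genes with an average log2 CPM of at least 2. It was 0.44 for Icam1. For Tlr2, Il1r1, Casp1, Pycard and Myd88 it was 0.23 to 0.29, close to the median of 0.24 over those genes. The highest library exceeded the lowest 16.03-fold for Nlrp3 and 13.8-fold for Tnf, but 1.66-fold for Myd88. The cytokines, Nlrp3 and Tlr4 were thus the widely spread genes, and the adaptors, Casp1, Il1r1 and Tlr2 were not.

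**Figure D2:**
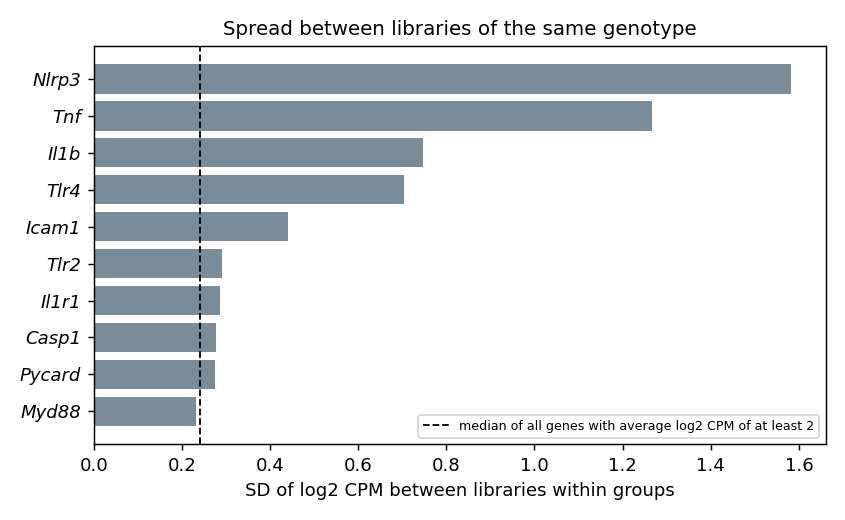
SD of log2 CPM between libraries of the same genotype for each of the 10 genes (bars, from 0), with the median of all genes of average log2 CPM of at least 2 as a dashed line at 0.24. The bars of Nlrp3, Tnf, Il1b and Tlr4 are at 0.70 or above, and Myd88 alone lies below the line.

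Promoter sequences are shown for the cytokine genes Tnf and Il1b and for Nlrp3, the widely spread genes, and for Tlr2, to set the letters of their proximal promoters side by side. Each is the 250 bases before a RefSeq transcription start (GRCm38.p6), 5′ to 3′ on the gene's strand, with capitals for TATAAA on that strand and for matches to the NF-kB consensus on either strand.
Tnf (chr17:35202008-35202257, minus strand): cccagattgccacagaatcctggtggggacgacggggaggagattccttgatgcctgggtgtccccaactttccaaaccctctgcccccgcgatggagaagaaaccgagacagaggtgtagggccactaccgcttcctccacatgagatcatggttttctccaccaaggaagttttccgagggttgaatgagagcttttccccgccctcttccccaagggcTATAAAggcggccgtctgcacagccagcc
Il1b (chr2:129371140-129371389, minus strand): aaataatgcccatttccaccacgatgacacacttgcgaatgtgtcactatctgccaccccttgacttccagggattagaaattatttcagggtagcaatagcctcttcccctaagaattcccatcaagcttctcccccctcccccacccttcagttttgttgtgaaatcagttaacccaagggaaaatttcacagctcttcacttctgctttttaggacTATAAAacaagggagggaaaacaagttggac
Nlrp3 (chr11:59541319-59541568, plus strand): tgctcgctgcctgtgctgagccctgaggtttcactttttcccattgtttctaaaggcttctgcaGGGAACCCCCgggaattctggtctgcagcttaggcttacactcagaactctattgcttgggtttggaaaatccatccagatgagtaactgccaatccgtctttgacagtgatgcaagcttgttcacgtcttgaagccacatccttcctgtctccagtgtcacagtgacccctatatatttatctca
Tlr2 (chr3:83841609-83841858, minus strand): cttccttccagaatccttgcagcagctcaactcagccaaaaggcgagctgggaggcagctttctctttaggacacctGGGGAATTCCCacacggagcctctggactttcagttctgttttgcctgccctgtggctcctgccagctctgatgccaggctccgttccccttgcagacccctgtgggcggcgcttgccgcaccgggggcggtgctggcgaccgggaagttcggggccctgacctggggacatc
TATAAA stood 29 bases before the start in Tnf and 31 bases before it in Il1b. Across all RefSeq promoters of this length 7.59% hold TATAAA, and across those of the tested genes 3.94%. Tlr2 held a pair of overlapping NF-kB matches, at 173 and 172 bases before the start, and this start of Nlrp3 held 1 at 186 bases. The other RefSeq start of Nlrp3, where its counted exons begin (59542686), held 0, and its sequence is not shown. The NF-kB consensus occurs in 7.25% of all promoters and 8.86% of those of tested genes. The patterns were chosen with these sequences in view: a narrower NF-kB pattern, GGG, any 2 bases and TTTCC on either strand, was searched first and matched 0 of the 9 genes with an entry (1.41% of all promoters), and the consensus then replaced it. Of the 9 genes with an entry (Tlr4 had none), 3 held an NF-kB match, Tlr2, Nlrp3 and Il1r1, and 3 held TATAAA, Tnf, Il1b and Myd88, the last at 160 bases. The Il1r1 match also lay at 1 RefSeq start only, and the start where the counted exons of Il1r1 begin held 0. These are counts of genes over all their starts, whereas the shares are per promoter. The AP-1 letters TGANTCA, searched on both strands, were in 0 of the 9, against 6.75% of all promoters and 4.67% of those of tested genes. A match describes letters, not a bound site.

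Among the receptors, Tlr2, which pairs with Tlr1 or Tlr6 to sense lipoproteins, lies on chromosome 3 from 83836272 to 83841608 in mm10. Its level was 22.2, 21.7, 24.4 and 21.6 CPM in db/m replicates 1 to 4 and 27.7, 26.1, 19.5 and 38.6 CPM in db/db replicates 1 to 4. The db/m libraries lay close together, whereas the db/db libraries lay on both sides of them, with replicate 3 lowest and replicate 4 highest of all 8. The log2 fold change was 0.31 ± 0.20 (SE), with an adjusted p of 0.485 by edgeR. It was 0.11 when db/db replicate 4, the highest library, was left out. Without db/db replicate 3, the lowest library, it was 0.45 (adjusted p = 0.213 by edgeR), and over the other single omissions 0.30 to 0.35.

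Tlr4, the receptor of bacterial lipopolysaccharide, lies on chromosome 4 from 66827811 to 66842796. Its level was 18.9, 17.8, 14.8 and 8.08 CPM in the db/m libraries and 38.2, 25.8, 10.5 and 31.9 CPM in the db/db libraries. In 3 of the 4 db/db libraries it was above every db/m library, and db/db replicate 3 lay among the db/m values. The mean was 14.9 ± 4.88 CPM in the db/m libraries and 26.6 ± 11.9 CPM in the db/db libraries, a 1.78-fold difference with a log2 fold change of 0.83 ± 0.38 (SE; 95% interval -0.02 to 1.69), an unadjusted p of 0.0543 and an adjusted p of 0.336 by edgeR. Without db/db replicate 3 the log2 fold change was 1.10 and the adjusted p 0.108, and over the other single omissions it was 0.61 to 0.97.

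Levels of macrophage genes were set beside both receptors. The 19 listed monocyte and macrophage genes summed to 1741 to 2483 CPM in db/m, and in db/db replicates 1 to 4 to 3144, 2629, 600 and 5689 CPM. All 19 were measured, and Marco alone was at 0 in any library (2 of 8). Tlr2 was lowest in the library with the lowest sum, db/db replicate 3, and highest in the library with the highest sum, db/db replicate 4. Tlr4 followed that order less closely, with its highest level in db/db replicate 1 and its lowest in db/m replicate 4. Adgre1, the macrophage antigen F4/80, was at 5.34 CPM in db/db replicate 3 and 172 CPM in db/db replicate 4. Of the list, 0 genes were called over all genes by edgeR, the likelihood ratio test called 1 and DESeq2 0. An unadjusted p under 0.05 was found for 3 of 19 (15.8%, against 15.3% of all genes). Of these, 1 was higher in db/db, Cd163, and 2 were lower, Ccr2 and Ctss. The median log2 fold change was 1.10, with 15 positive and 4 negative values. Whether macrophage RNA contributed to the levels of Tlr2 and Tlr4 was not tested, and in bulk libraries a change in the number of cells of a type and a change in the RNA per cell cannot be told apart.

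**Figure D3:**
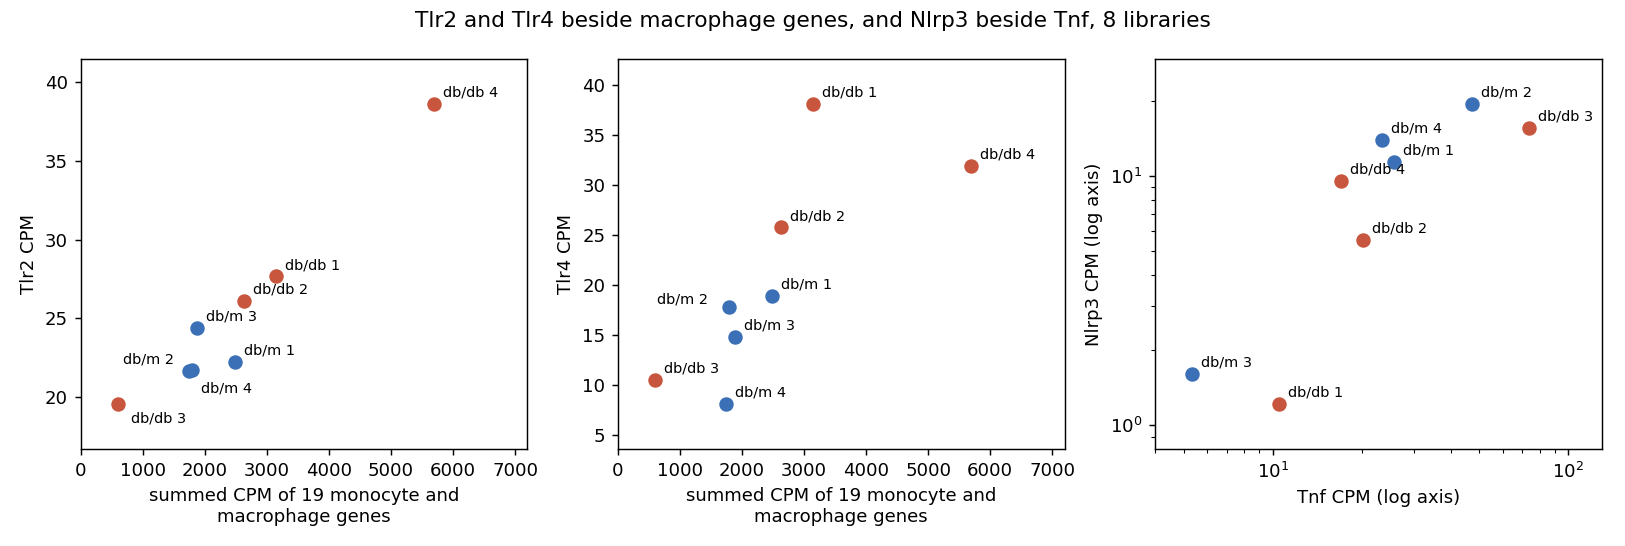
Tlr2 (left) and Tlr4 (middle) in CPM against the summed CPM of 19 monocyte and macrophage genes, and Nlrp3 against Tnf in CPM on log axes (right); each point is 1 of 8 libraries, labelled by group and replicate. Tlr2 is lowest at 600 and highest at 5689 summed CPM, and on the right db/m replicate 3 and db/db replicate 1 lie apart at the low end of both genes.

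Il1r1, the signalling receptor of interleukin-1, lies on chromosome 1 from 40225080 to 40316177. It was at 68.5, 82.6, 107 and 86.5 CPM in the db/m libraries and at 59.03, 93.5, 92.2 and 77.04 CPM in the db/db libraries. The groups overlapped over most of their range, and the log2 fold change was -0.10 ± 0.18 (SE; 95% interval -0.49 to 0.30; adjusted p = 0.840 by edgeR). Its sign turned when db/m replicate 3 (0.01) or db/db replicate 1 (0.025) was left out.

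Of the 19 tested Toll-like receptor and co-receptor genes 0 were called by edgeR, the likelihood ratio test called 1 and DESeq2 2. An unadjusted p under 0.05 was found for 3 (15.8%, beside 15.3% of all genes), 1 higher and 2 lower. Hsp90b1, a chaperone needed to fold Toll-like receptors and many secreted proteins, was at 1432 ± 586 CPM in the db/m libraries and 659 ± 198 CPM in the db/db libraries. Unc93b1, which carries nucleic acid-sensing Toll-like receptors to endosomes, was at 381 ± 36.8 and 249.1 ± 66.2 CPM. Neither passed, with adjusted p of 0.116 and 0.144 by edgeR, although the groups did not overlap in either. Groups did not overlap in 2 of the 19 genes, beside 9.03% of all genes. Cd36, a scavenger receptor that assists Tlr2, was at 8.29 ± 3.57 and 17.7 ± 11.5 CPM (adjusted p = 0.285). The 12 listed plasma cell genes, whose cells are rich in secretory chaperones, summed to 4464 to 18553 CPM in db/m and 1435 to 6411 CPM in db/db; their part in the level of Hsp90b1 was not tested.

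Of the 14 tested interleukin-1 family ligands and receptors, which include Il1r1 and Il1b, 0 were called by edgeR, the likelihood ratio test or DESeq2. An unadjusted p under 0.05 was found for 2 (14.3%, beside 15.3% of all genes), both higher in db/db. On the positive side were 9 of the 14, beside 51.4% of all genes. The median log2 fold change was 0.28, beside 0.01 over all genes. Sigirr, a receptor that dampens interleukin-1 and Toll-like signals, was at 91.01 ± 3.98 CPM in the db/m libraries and 109.8 ± 15.4 CPM in the db/db libraries. Il1rap, the co-receptor of Il1r1, was at 22.5 ± 3.55 and 28.5 ± 2.24 CPM, and Il18bp, which neutralises interleukin-18, at 14.3 ± 1.65 and 23.2 ± 11.02 CPM. Their adjusted p were 0.317, 0.319 and 0.364.

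Myd88, the adaptor shared by most Toll-like receptors and the interleukin-1 receptor, lies on chromosome 9 from 119335988 to 119340040. It was at 79.9, 70.3, 117 and 89.5 CPM in the db/m libraries and at 96.5, 82.5, 83.2 and 85.5 CPM in the db/db libraries. All db/db values lay inside the db/m range. The log2 fold change was -0.04 ± 0.15 (SE; 95% interval -0.38 to 0.31; adjusted p = 0.942 by edgeR), and it was 0.11 without db/m replicate 3, the highest library. In the GENCODE M21 annotation the longest overlap of Myd88 exons with a single exon of Acaa1a, on the other strand, is 223 bases. Some reads of that stretch may belong to either gene.

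Of the 28 tested adaptors and kinases below the receptors 0 were called by edgeR, and the likelihood ratio test and DESeq2 each called 1. An unadjusted p under 0.05 was found for 3 (10.7%, beside 15.3% of all genes). Irak3, an inhibitory member of the Irak family, was at 45.3 ± 8.66 CPM in the db/m libraries and 72.6 ± 12.6 CPM in the db/db libraries (log2 fold change 0.68 ± 0.17, SE; adjusted p = 0.111). Peli1, a ubiquitin ligase of this pathway, was at 67.3 ± 9.10 and 87.2 ± 5.01 CPM (adjusted p = 0.174), and Irf3, the transcription factor that drives type I interferon, was at 71.4 ± 8.19 and 58.3 ± 7.18 CPM (adjusted p = 0.313). The summed level of the 28 genes was 1893 to 2099.5 CPM in db/m and 1978 to 2034 CPM in db/db.

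The smallest p among the 10 genes was that of an inflammasome gene. Pycard, the adaptor ASC that joins Nlrp3 to caspase-1, lies on chromosome 7 from 127991373 to 127993867. It was at 54.1, 62.7, 94.6 and 82.9 CPM in the db/m libraries and at 50.97, 46.6, 42.4 and 51.4 CPM in the db/db libraries. Every db/db library lay below every db/m library, the nearest being db/db replicate 4 and db/m replicate 1, and the db/m libraries were the more widely spread. The mean of 47.9 ± 4.22 CPM in db/db was 1.54-fold lower than that of 73.6 ± 18.5 CPM in db/m, with a log2 fold change of -0.62 ± 0.18 (SE; 95% interval -1.01 to -0.23), an unadjusted p of 0.00541 and, in edgeR's quasi-likelihood test, 0.136 after adjustment. It ranked 546th by p among the 13708 genes.

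The authors' deposited table gives Pycard a log2 fold change of -0.62 and a false discovery rate of 0.0455, and 4.28% of all genes in it are under 0.05. A likelihood ratio test in edgeR returned that table's p-values to within 1.28e-09. DESeq2 gave an adjusted p of 0.0295. Over the other alternatives the adjusted p was 0.0874 to 0.317, and the log2 fold change stayed between -0.74 (without db/m replicate 1) and -0.42 (when each group lost its lowest-weight library). Without db/m replicate 3 it was -0.49. The call thus rests on the choice of test. In the annotation the longest overlap of Pycard exons with a single exon of Gm45205 is 485 bases. Gm45205 is an unverified transcript on the other strand that has no row in the count table.

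**Figure D4:**
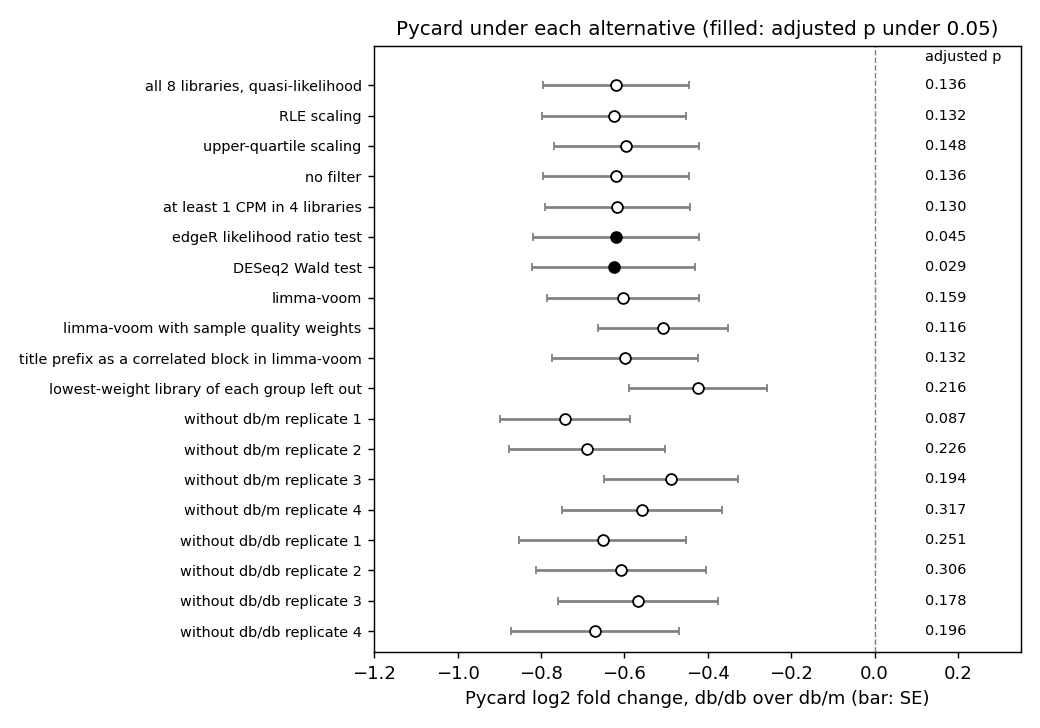
Log2 fold change of Pycard, db/db over db/m, for the quasi-likelihood test on all 8 libraries and under each of 18 alternatives; points are estimates, bars are SE, and the adjusted p stands at the right. All points lie between -0.74 and -0.42, and the 2 filled points, the likelihood ratio test and DESeq2, are those with an adjusted p under 0.05.

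Casp1, the protease that matures interleukin-1 beta, lies on chromosome 9 from 5298517 to 5307281. It was at 49.8, 37.9, 59.4 and 54.98 CPM in the db/m libraries and at 47.5, 46.5, 33.0 and 49.9 CPM in the db/db libraries. The groups overlapped, with db/db replicate 3 the lowest library, and the log2 fold change was -0.19 ± 0.18 (SE; 95% interval -0.58 to 0.20; adjusted p = 0.650 by edgeR). It was -0.31 without db/m replicate 2, -0.12 when db/m replicate 3 was omitted and -0.08 when db/db replicate 3 was.

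Nlrp3, the sensor, lies on chromosome 11 from 59542686 to 59566956. It was at 11.4, 19.5, 1.61 and 13.9 CPM in the db/m libraries and at 1.21, 5.53, 15.6 and 9.51 CPM in the db/db libraries, which rests on 46 to 642 reads per library. Each genotype held 1 library under 2 CPM, db/m replicate 3 and db/db replicate 1, so the spread within genotypes exceeded the difference between their means. The log2 fold change was -0.54 ± 0.76 (SE), and its 95% interval of -2.24 to 1.16 leaves a difference in either direction possible (adjusted p = 0.790 by edgeR). Its size depended on single libraries: it was -0.17 without db/m replicate 2, -0.18 without db/db replicate 1, -0.91 when db/m replicate 3 was omitted and -1.10 when db/db replicate 3 was. With both replicates 3 left out it was -1.47 (unadjusted p = 0.0342, adjusted p = 0.224 by edgeR). These libraries were chosen by their low voom quality weights, which come from the same counts. With them left out 18.9% of all genes had an unadjusted p under 0.05.

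Of the 27 tested inflammasome genes 0 were called by edgeR, 3 by the likelihood ratio test and 4 by DESeq2. An unadjusted p under 0.05 was found for 10 (37%), 3 higher and 7 lower, against 7.78% higher and 7.54% lower over all genes. The list includes Pycard, which is among the 3 called by the likelihood ratio test and among the 7 lower genes. These counts are therefore not separate from the Pycard result above. Txnip, a thioredoxin inhibitor reported to bind Nlrp3, was at 362 ± 39.0 CPM in the db/m libraries and 652 ± 146 CPM in the db/db libraries (log2 fold change 0.85 ± 0.17, SE; adjusted p = 0.0808). Dpp9, a peptidase that restrains the Nlrp1 inflammasome, was at 100.5 ± 10.2 and 74.05 ± 5.29 CPM (log2 fold change -0.44 ± 0.11, SE; adjusted p = 0.111). The median of the list was -0.02.

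Il1b, the cytokine precursor that caspase-1 cleaves, lies on chromosome 2 from 129364580 to 129371120. It was at 4.31, 4.84, 1.39 and 5.85 CPM in the db/m libraries and at 3.35, 4.29, 3.23 and 7.21 CPM in the db/db libraries, or 51 to 201 reads per library. The lowest library was db/m replicate 3 and the highest db/db replicate 4. The log2 fold change was 0.14 ± 0.45 (SE; 95% interval -0.87 to 1.15; adjusted p = 0.918 by edgeR), and it turned to -0.16 when db/m replicate 3 was left out and to -0.19 without db/db replicate 4. Neutrophil genes, 13 of which were tested, summed to 712 CPM in db/db replicate 4 and 68.2 CPM in db/m replicate 3, with 38.7 to 538 CPM in the other libraries; their part in the level of Il1b was not tested.

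Tnf, the cytokine that activates NF-kB through its own receptors, lies on chromosome 17 from 35199367 to 35202007. It was at 25.7, 47.1, 5.31 and 23.4 CPM in the db/m libraries and at 10.5, 20.2, 73.6 and 17.01 CPM in the db/db libraries. The highest library, db/db replicate 3, held more than 3 times the level of any other db/db library, and the remaining 3 db/db libraries lay inside the db/m range. The log2 fold change was 0.26 ± 0.68 (SE; 95% interval -1.26 to 1.78; adjusted p = 0.897 by edgeR), and it turned to -0.67 without db/db replicate 3 and to -0.08 without db/m replicate 3.

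Tnf and Nlrp3 followed each other across libraries irrespective of genotype: the libraries with the most of both were db/m replicate 2 and db/db replicate 3, and those with the least were db/m replicate 3 and db/db replicate 1. Immediate early and dissociation genes, 24 of 24 measured, summed to 9649 CPM in db/m replicate 3 and 55088 CPM in db/db replicate 3, the lowest and highest of the 8 and also the libraries with the lowest and highest Tnf. The other libraries had 24134 to 36918 CPM, and the 2 orders differed among them. In db/db replicate 1 the sum was 32342 CPM and Tnf 10.5 CPM, and in db/m replicate 1 they were 24134 and 25.7 CPM. Of this list 0 genes were called by edgeR and 1 by the likelihood ratio test, and their part in the level of Tnf was not tested.

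Of the 28 tested NF-kB response genes 0 were called by edgeR and 3 each by the likelihood ratio test and DESeq2. An unadjusted p under 0.05 was found for 7 (25%, beside 15.3% of all genes), 1 higher and 6 lower. The median log2 fold change was -0.22. Bcl3, an atypical inhibitor protein of NF-kB, was at 53.5 ± 18.1 CPM in the db/m libraries and 29.5 ± 4.001 CPM in the db/db libraries, with groups that did not overlap (adjusted p = 0.119). Over the 28 genes this held for 1 higher and 1 lower in db/db, beside 9.03% of all genes. Cd40, a costimulatory receptor, was at 8.80 ± 3.81 and 2.59 ± 1.30 CPM (adjusted p = 0.124), and Il10, an anti-inflammatory cytokine, at 22.004 ± 13.2 and 4.89 ± 3.10 CPM (adjusted p = 0.178). The summed level ran from 1614 CPM in db/m replicate 3, the library of lowest Tnf, to 6087 CPM in db/m replicate 2, with 2681 to 5704 CPM in db/db. Of the 21 tested genes of TNF, its receptors and their signalling 0 were called by edgeR. The likelihood ratio test and DESeq2 each called 1, and 3 (14.3%, beside 15.3% of all genes) had an unadjusted p under 0.05. Ltb, a ligand of the TNF family, was at 67.4 ± 0.885 and 124 ± 37.8 CPM (adjusted p = 0.0963), Rnf31, a subunit of the linear ubiquitin ligase, at 61.5 ± 4.75 and 50.9 ± 6.21 CPM (adjusted p = 0.319), and Birc3, an inhibitor of cell death, at 94.2 ± 27.8 and 67.9 ± 10.8 CPM (adjusted p = 0.325).

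Icam1, the adhesion molecule that binds leukocyte integrins, lies on chromosome 9 from 21015960 to 21028796. It was at 261, 219, 109.7 and 135 CPM in the db/m libraries and at 111, 134, 157 and 147 CPM in the db/db libraries. The db/db libraries lay close together, and db/m replicates 1 and 2 lay above all of them while db/m replicate 3 lay just below. The log2 fold change was -0.40 ± 0.25 (SE; 95% interval -0.97 to 0.17; adjusted p = 0.496 by edgeR). When single libraries were left out it ran from -0.17, without db/m replicate 1, to -0.58, without db/m replicate 3. The longest overlap of Icam1 exons with a single exon of the antisense transcript Gm47079 is 490 bases.

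Among the 15 tested ICAM proteins and integrin partners, which include Icam1, 0 were called by edgeR. The likelihood ratio test and DESeq2 each called 1. An unadjusted p under 0.05 was found for 5 (33.3%, beside 15.3% of all genes), 2 higher and 3 lower. Itgal, the alpha chain of the integrin LFA-1 that binds Icam1, was at 268 ± 52.5 CPM in the db/m libraries and 106 ± 32.1 CPM in the db/db libraries (log2 fold change -1.34 ± 0.23, SE; adjusted p = 0.0797). Icam2, another ligand of LFA-1, was at 62.4 ± 9.58 and 44.7 ± 7.05 CPM (adjusted p = 0.182), and Itgb1, the beta chain of a separate integrin family, at 312 ± 22.97 and 384 ± 13.9 CPM (adjusted p = 0.198). In these 3 genes the groups did not overlap. Over the 15 genes this held for 2 higher and 2 lower in db/db, beside 9.03% of all genes. Itgal is expressed by lymphocytes as well; the 15 tested T and NK cell genes summed to 273 to 457 CPM in db/m and 191 to 249.9 CPM in db/db, and their part in the level of Itgal was not tested.

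**Figure D5:**
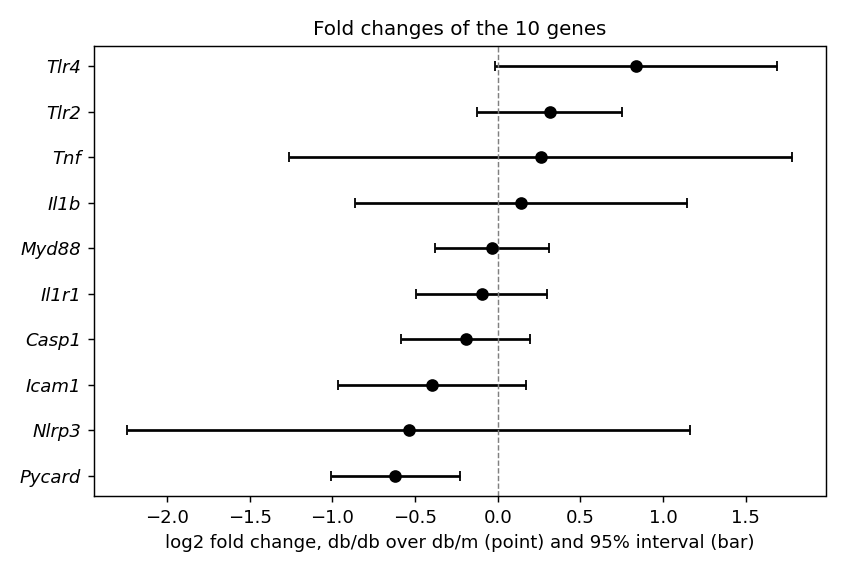
Log2 fold change of each of the 10 genes, db/db over db/m, by edgeR's quasi-likelihood fit (points) with 95% intervals (bars) on a linear axis. The interval of Pycard, -1.01 to -0.23, is the 1 that does not reach 0, and those of Nlrp3 and Tnf are the widest.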

How the data were processed

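LSK cells came from flow sorting and their RNA from Trizol extraction, per the labels' protocols, which call the library type ultralow mRNA. The submitters' processing notes list FastQC 0.11.5, STAR 2.7.10a, Subread 2.0.3 with featureCounts, edgeR 3.40.2 and the mm10 build. No source used here gives the annotation or the strand setting; antisense reads made up 46.0% to 46.5% of coding and junction reads in the deposited mapping table, so overlapping genes on opposite strands could not be told apart. The authors deposited raw counts, log2 CPM, and signed fold change scores with log2 fold changes and p-values; the RNA integrity score is from the deposited project sheet. The smallest row total was 79, so the table holds no gene of lower total.

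The counts were fitted with edgeR 4.0.16 in R 4.3.3 after TMM scaling; filterByExpr left all 13708 genes in. Genotypes were compared by the quasi-likelihood test, with Benjamini-Hochberg adjustment over all genes and a threshold of 0.05. The model held genotype alone. Libraries were compared pairwise, and none agreed within sampling noise. RPKM was computed from the deposited gene lengths. Alternatives were scaling by RLE or upper quartile, omission of the filter, at least 1 CPM in 4 libraries, the likelihood ratio test, DESeq2 1.42.0, limma-voom 3.58.1 (also with quality weights), a correlation within title prefixes, and omitted libraries. Named genes are the 10 genes, the called genes and the 3 of smallest p in each list and the 3 most like each of the 10; Adgre1, Marco, Kit and Lepr were named after their values were seen. Of the LSK list only Ly6a and Kit are named, and 1 result that the rule would add is not reported here. The genes and lists were chosen with earlier results of these data known. Promoters are from RefSeq (GRCm38.p6).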

Additional observations from a re-analysis of the deposited data

Results flagged for a closer look

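Of 20 groups of 4 libraries looked at, 10 genes in 2 genotypes, 1 held a library far from the other 3: Tnf in db/db, where replicate 3 was at 73.6 CPM and the others at 10.5 to 20.2 CPM. The gap to the nearest library was 0.846 of the whole range of the group, above Dixon's 95% critical value for 4 samples. About 1 group in 20 is expected to pass that value by chance. The same library had the highest summed level of immediate early and dissociation genes (55088 CPM), the lowest of monocyte and macrophage genes (600 CPM) and the lowest quality weight (0.442); their part in the Tnf level was not tested.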

How the results depend on the processing

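No paired analysis was possible because the running numbers in the titles restart within each title prefix, and each prefix occurs in 1 genotype. Over all genes the count of 5 became 0 with upper-quartile scaling or limma-voom, 14 with the title prefix as a correlated block, 192 with quality weights, 195 when each group lost its lowest-weight library, 587 with the likelihood ratio test and 767 with DESeq2, and 0 to 90 without 1 library. The count of the 10 genes called became 1 with the likelihood ratio test and with DESeq2 and was 0 under every other alternative. Their count at an unadjusted p under 0.05 became 2 with the likelihood ratio test, DESeq2 or quality weights, beside 15.2%, 16.8% and 20.2% of all genes. It was 1 to 3 without 1 library, beside 10.7% to 18.7% of all genes. It was 6 when each group lost its lowest-weight library (Tlr2, Tlr4, Nlrp3, Pycard, Tnf and Icam1, beside 18.9% of all genes). Groups that did not overlap numbered 1 to 3 without 1 library (beside 10.8% to 17.9%). They numbered 5 when each group lost its lowest-weight library (beside 25.5%). In that fit signs turned for Myd88 (0.14), Il1b (-0.018), Casp1 (0.011) and Tnf (-1.01), and with quality weights for Myd88 (0.071) and Tnf (-0.42). Without 1 library log2 fold changes ran from -0.13 to 0.11 for Myd88, -0.19 to 0.025 for Il1r1, -0.19 to 0.36 for Il1b and -0.67 to 0.74 for Tnf. The cause was not tested. Signs of Tlr2, Tlr4, Nlrp3, Pycard and Icam1 held under all 18 alternatives. Il1b and Nlrp3 rest on as few as 51 and 46 reads, which limits their precision.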

Other observations

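Markers of other cell types were measured beside the 10 genes, and 0 genes of these marker lists were called by edgeR's quasi-likelihood test. The 14 listed erythroid genes summed to 891 to 1238 CPM in db/m and 1745 to 5477 CPM in db/db, highest in db/db replicate 3, with 13 at an unadjusted p under 0.05 (92.9%, beside 15.3% of all genes). The likelihood ratio test called 9 of the 14 (and 4.28% of all genes), DESeq2 3 and limma-voom 0. Other marker lists also had high shares at an unadjusted p under 0.05. These were 12 of 12 plasma cell genes (100%) and 10 of 15 T and NK cell genes (66.7%), all lower in db/db. The share was 46.2% for dendritic cell, 44.4% for mast cell and basophil, 36.4% for stroma, endothelium and adipocyte, 22.2% for B cell and 0% for neutrophil genes. B cell genes summed to 197 to 389 CPM in db/m and 104 to 299 CPM in db/db, dendritic cell genes to 748 to 904 and 672 to 822 CPM, mast cell and basophil genes to 216 to 639 and 463 to 563 CPM, and stroma, endothelium and adipocyte genes to 176 to 304 and 241 to 429 CPM.

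The 3 genes of smallest p in each marker list were Cd163, Ccr2 and Ctss among monocyte and macrophage genes (log2 fold changes 1.61, -1.92 and -1.02), Il1r2, Wfdc21 and Cxcr2 among neutrophil genes (log2 fold changes -0.99, -1.14 and -0.77), Bst2, Tcf4 and Siglech among dendritic cell genes (log2 fold changes -0.80, -0.36 and -2.04), Cd79a, Cd79b and Fcer2a among B cell genes (log2 fold changes -1.65, -0.79 and 1.26). They were Slamf7, Xbp1 and Fkbp11 among plasma cell genes (log2 fold changes -2.31, -1.57 and -1.05), Cd3g, Lck and Il7r among T and NK cell genes (log2 fold changes -2.31, -0.44 and -1.39), Gata2, Fcer1a and Il4 among mast cell and basophil genes (log2 fold changes 0.67, -1.34 and 1.08), Car2, Epor and Alas2 among erythroid genes (log2 fold changes 1.17, 1.48 and 1.64), and Tek, Cdh5 and Col1a2 among stroma, endothelium and adipocyte genes (log2 fold changes 0.69, -1.64 and 2.41), Klf2, Klf6 and Dusp1 among immediate early and dissociation genes (log2 fold changes 1.62, 1.32 and 0.76). Their adjusted p by edgeR ran from 0.0797 to 0.605. Of the 12 plasma cell genes the likelihood ratio test called 12, DESeq2 10 and limma-voom 0, and of the 15 T and NK cell genes 6, 6 and 0.

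For each of the 10 genes, the 3 genes with the most similar log2 CPM over the 8 libraries were taken from 11152 genes of average log2 CPM of at least 2. These likenesses are descriptions across genes that share libraries, and with so many genes searched each maximum is high. Tlr2 was most like Cd163, Trf and Cd302 (r 0.955 to 0.965), and Tlr4 was most like Arntl, Btbd9 and Plxna1 (r 0.959 to 0.969). Myd88 was most like Slc35b4, Il12a and Asb8 (r 0.965 to 0.986), and Il1r1 was most like Ksr1, Nupl2 and Ppp2r3c (r 0.925 to 0.930). Il1b was most like Adipor1, 4930413G21Rik and Pafah1b1 (r 0.965 to 0.985), and Nlrp3 was most like Csnk1a1, Tox4 and Lztfl1 (r 0.966 to 0.990). Casp1 was most like Nrde2, Tmem55b and Pdss2 (r 0.939 to 0.960), and Pycard was most like Ptp4a3, Zbtb8os and Sorl1 (r 0.974 to 0.978). Tnf was most like Jmjd6, Brd2 and Zbtb11 (r 0.970 to 0.980), and Icam1 was most like Ppp1r16b, Myo1h and Rab7 (r 0.962 to 0.978). Cd163, the gene most like Tlr2, is one of the listed macrophage genes, and whether macrophage RNA contributed to the level of Tlr2 was not tested.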
